A study of Arabidopsis thaliana with 24 samples.

Results

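The leaf transcriptome of Arabidopsis plants of the group sDH was compared with that of diploid plants of the group 2n. The series holds 24 samples of leaf RNA and DNA, and the comparison rests on 4 of its 12 RNA libraries, 2 of sDH and 2 of 2n, picked by the column names of the deposited count tables. The labels do not spell out sDH. The columns of sDH are headed sptan2n with the numerals II and III, and those of 2n are headed WT with 1 and 2, and the libraries keep these names here (sDH II, sDH III, 2n WT1, 2n WT2). The other groups of the series are haploid plants (1n) and 3 lines of doubled haploids (DH6, DH9, DH14), with 2 RNA libraries each. The table names give Col, not spelled out there, for 1n and for the 2n columns, and none for sDH. No transgene, agent or allele is named for sDH or 2n, and the labels do not say from how many plants or founders either group came.

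Seeds were stratified for 2 days at 4 °C, and plants on soil were sampled at 2 weeks of age. Growth was at 22 °C in long days (16 h light, 8 h dark). RNA came from leaves 6, 7 and 8, while the tissue field names seedlings. Poly(A) RNA was sequenced in 150 bp paired-end mode. The 2 libraries of a group are called biological replicates, with nothing on separate plants, sowings or harvests. A p-value here thus reflects only the spread between replicates, which may be technical. That spread was estimated over all 12 RNA libraries in 6 groups, not over the 4 compared alone. The hour at which leaves were taken is not given.

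The 4 libraries held 19573672 and 17702742 counts in genes in 2n and 21034760 and 17434011 in sDH, within the range of 16484799 to 22146896 over all 12. Replicates correlated at r = 0.990 in 2n and 0.991 in sDH over log2 levels, and the libraries of sDH and 2n at 0.938 to 0.945. Replicates differed by more than the sampling of reads (chi-square over its degrees of freedom, 10.2 in 2n and 7.32 in sDH). The sDH libraries correlated most with DH6 (0.971 to 0.980) and the 2n libraries with DH9 (0.965 to 0.971). With 2 libraries in a group, these values cannot tell which of them departs from its group. Some genes differed widely between the 2n libraries, as given below.

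A doubled haploid is made by doubling the chromosomes of a haploid plant, which itself holds the genome of 1 gamete, so that the doubled plant has the ploidy of an ordinary diploid and is homozygous. Salicylic acid is a leaf defence hormone. It is made by isochorismate synthase, its production is amplified by the lipase-like proteins EDS1 and PAD4, and the NPR receptors carry its signal to the pathogenesis-related genes. The plant clock runs as a loop in which the morning factors CCA1 and LHY and the evening factor TOC1 repress each other, and many light, starch and stress genes follow it through the day. When leaves run short of sugar, as in prolonged darkness, a set of genes for asparagine synthesis and for the breakdown of branched-chain amino acids is switched on.

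Leaves of sDH carried far less mRNA of salicylic acid defence genes than leaves of 2n, and less of WRKY factors and rapid stress factors. They carried more mRNA of morning clock genes, of light-harvesting and chlorophyll genes and of genes of sugar starvation. Most listed genes of cell division, DNA replication, centromeres and DNA demethylation did not pass the test. In bulk tissue, fewer cells of a type and less RNA per cell cannot be told apart, here or in any result below.

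Of 19201 genes with enough counts to test, 2951 rose in sDH and 2877 fell by edgeR's quasi-likelihood test at an adjusted p under 0.05. These are 15.4 and 15% of the genes tested, or 30.4% in either direction. Each count of a gene list below is to be read beside these shares. All lists were chosen with earlier results of these data known, so their counts describe the listed genes and test no set. The median change over all tested genes was 0.04 on the log2 scale, close to no shift of the whole. Of the genes that passed, 674 rose and 1323 fell by more than 2-fold, 195 rose and 620 fell by more than 4-fold, and 31 rose and 108 fell by more than 32-fold. The median change was 0.60 among genes that rose and -0.91 among those that fell. Against a minimum fold of 2 as the null value, 223 genes rose and 620 fell, and without the library sDH II the count of changed genes was 3668. Libraries of sDH and 2n did not overlap in 12855 genes, 66.9% of those tested. Separation of the groups is thus common for a single gene, the more so for genes named for a small p. The median of the genes of single nuclear chromosomes lay between 0.03 and 0.06.

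**Figure D1:**
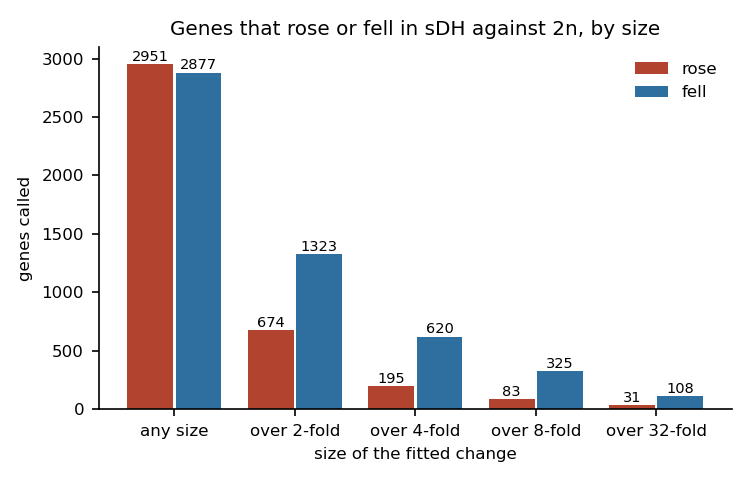
Number of genes (vertical axis) that rose or fell in sDH against 2n among genes passing edgeR's test, in all and beyond fold changes of 2, 4, 8 and 32 (horizontal axis). In all, 2951 genes rose and 2877 fell, while beyond 8-fold 83 rose and 325 fell.

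To see which changes also separated sDH from the other doubled haploids, sDH was tested against the mean of DH6, DH9 and DH14 in the same fit. Here 2509 genes (13.1%) were higher in sDH and 2281 (11.9%) lower, 24.9% of genes in all. Without sDH II the count of 4790 was 2058, and without sDH III it was 2193. Both tests share the sDH libraries, so the values are given side by side for each gene and not set against each other as a whole.

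**Figure D2:**
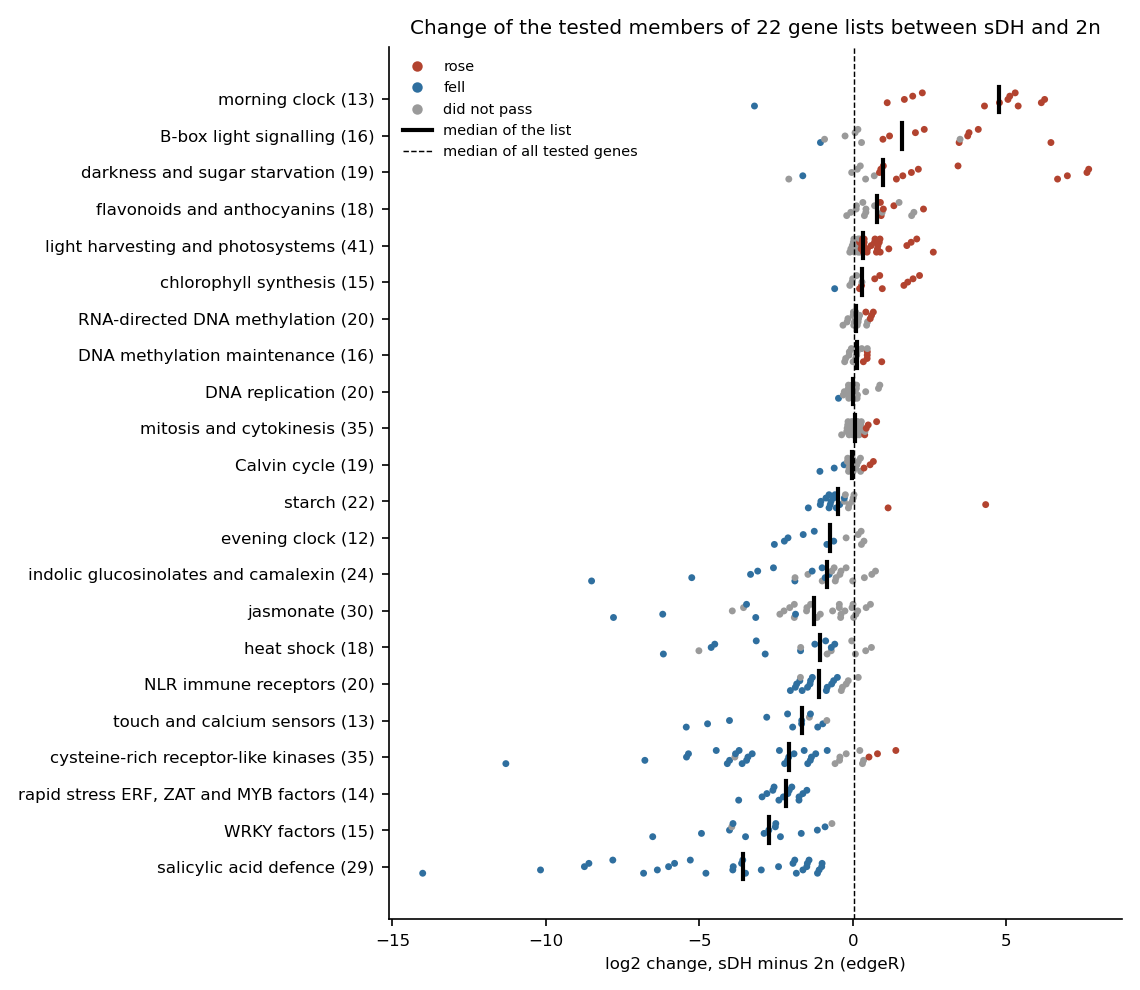
Log2 change in sDH against 2n (horizontal axis) of each tested member of 22 gene lists (rows, number of tested members in parentheses), with a black bar at the median of the list and a dashed line at the median of all tested genes. Salicylic acid genes lie wholly to the left with a median of -3.58, morning clock genes lie to the right apart from 1 member with a median of 4.78, and mitosis and replication genes lie around the dashed line with medians of 0.08 and 0.02.

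The salicylic acid list fell as a whole. All 29 tested members fell in sDH, with a median log2 change of -3.58 against 0.04 over all genes, and all 29 fell whichever library was left out. The libraries of the groups did not overlap in any of them, as was the case for 66.9% of all genes tested. Levels below are in CPM (read counts scaled to library size and composition), in the order WT1 and WT2 for 2n and II and III for sDH. They serve to compare libraries, not genes, since they are not divided by gene length.

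ICS1 (EDS16), the isochorismate synthase that makes most salicylic acid, stood at 37.8 and 28.2 CPM in 2n and at 16.1 and 14.7 CPM in sDH (log2 change -1.09, SE 0.13, adjusted p = 0.000131). EDS5, which exports the precursor from the chloroplast, had 14.2 and 12.4 CPM in 2n and 1.35 and 0.819 CPM in sDH. Both sDH libraries lay below both 2n libraries for each, by a larger factor for the transporter than for the enzyme. SARD1, a transcription factor that activates ICS1, read 79.9 and 107 CPM in 2n and 5.36 and 7.25 CPM in sDH (log2 change -3.89, SE 0.31, adjusted p = 7.87e-06). Its partner CBP60G fell less (-2.42). ALD1, which starts the synthesis of the mobile signal pipecolic acid, had 156 and 137 counts in 2n and 0 in both sDH libraries, at least 96.5-fold lower by a floor of 3 counts in the group (adjusted p = 8.12e-05).

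Of the amplifying proteins, PAD4 had 37.9 and 44.1 CPM in 2n and 5.64 and 4.68 CPM in sDH, and each sDH library lay far under the lower 2n library (log2 change -2.98, SE 0.19, adjusted p = 2.23e-06). SAG101, a further partner of EDS1, fell by 1.15, and EDS1 itself from 51.5 and 61.6 CPM to 19.2 and 20.9 CPM. NPR1, the receptor that activates the target genes, fell by 1.01, and NPR4, a repressor in the same family, by 1.00 (adjusted p = 4.95e-05 and 3.15e-05). The nudix hydrolase NUDT6 had 41.6 and 35 CPM in 2n and 3.26 and 2.93 CPM in sDH, the smallest adjusted p of the list (log2 change -3.62, SE 0.20, adjusted p = 9.01e-07).

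PR1, the classical marker of salicylic acid signalling, had 2790 and 1450 counts in 2n and none in either sDH library, at least 1397-fold lower (adjusted p = 0.000283). PR2 (BGL2), a glucanase, stood at 167 and 65.3 CPM in 2n and at 1.45 and 0.527 CPM in sDH. PR5, a thaumatin-like protein, read 295 and 192 CPM against 11.5 and 6.03 CPM (log2 change -4.78, SE 0.40, adjusted p = 1.06e-05). The 2n libraries themselves differed for PR1, PR2 and PR5, WT1 being the higher in each, but the lower of them still exceeded both sDH libraries. UGT76B1, a glucosyltransferase that inactivates defence signals, had 312 and 233 counts in 2n and 0 and 1 in sDH, a count ratio of 538.6 with a 95% counting interval of 96.3 to 21313.

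Of the 6 groups, sDH had the lowest average of SARD1 and PAD4 and DH6 the next, and the libraries of sDH and DH6 overlapped for SARD1. SARD1 averaged 44.6 CPM in 1n, 7.74 in DH6, 32.3 in DH9 and 34.1 in DH14. PAD4 averaged 52.6 CPM in 1n, 11.7 in DH6, 15.6 in DH9 and 19.7 in DH14. PR1 averaged 316 CPM in 1n, 6.93 in DH6, 0.367 in DH9 and 1.31 in DH14. Of the 29 members, 16 were lower in sDH than in the mean of the 3 lines, with a median of -1.32 where that over all genes was 5.44e-05. PAD4 (-1.56, adjusted p = 0.000171) and SARD1 (-1.70, adjusted p = 0.0013) passed that test. PR1 did not (adjusted p = 0.12).

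Intracellular immune receptors of the NLR type, which recognise pathogen effectors, also fell, though by less. Of 20 tested members 14 fell and none rose, with a median of -1.09, and 11 of the 14 fell whichever library was left out. RPS2, which guards the protein RIN4, had 36.1 and 40.2 CPM in 2n and 11.3 and 10.2 CPM in sDH (log2 change -1.83, SE 0.13, adjusted p = 4.59e-06). ZAR1, which forms a channel in the membrane once active, stood at 208 and 306 CPM in 2n and at 67 and 73.5 CPM in sDH (-1.87, adjusted p = 5.45e-05). Values of these receptors fell apart cleanly between the groups. The helper receptors ADR1, ADR1-L1 and ADR1-L2 fell by 1.72, 1.39 and 1.47. RPP1, RPP4, RPP5, RRS1, CHS3 (DAR4) and DAR5 did not pass, and sDH and 2n overlapped in all of these but DAR5. Near-identical copies such as SNC1, RPP4 and RPP5 share sequence, and how reads that match several copies were counted is not recorded in the sources used here.

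WRKY factors, many of which bind the promoters of defence genes, fell in 13 of 15 tested members, and none rose (median -2.73). WRKY46 had 51.7 and 67.4 CPM in 2n and 3.4 and 3.98 CPM in sDH (log2 change -4.01, SE 0.25, adjusted p = 1.72e-06). WRKY54 stood at 71.2 and 70.7 CPM in 2n and at 11.9 and 13 CPM in sDH, and its partner WRKY70 at 359 and 386 CPM against 56 and 89.7 CPM. All 4 values of each gene separated by group. WRKY53, a regulator of leaf ageing and defence, fell by 3.49, and WRKY33, which controls camalexin synthesis, by 2.52 (adjusted p = 1.5e-05 and 0.00059). WRKY60 and WRKY62 did not pass. Against the mean of the 3 lines, WRKY54 was lower in sDH (-1.61, adjusted p = 3e-05), while WRKY46 did not pass (-0.34, adjusted p = 0.31).

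Factors that are induced within minutes of touch, wounding or other stress fell too. In the list of ERF, ZAT and MYB factors all 14 fell (median -2.19), 10 of these whichever library was left out. ZAT10 (STZ), a zinc finger repressor, had 126 and 145 CPM in 2n and 14.7 and 20.4 CPM in sDH. RRTF1, a redox-responsive ERF, stood at 35.3 and 28.7 CPM in 2n and at 2.57 and 2.28 CPM in sDH (log2 change -3.72, SE 0.48, adjusted p = 0.000213). For both genes sDH was the lower in each library, with little spread within groups. Against the mean of the 3 lines none of the 14 was lower in sDH and 4 were higher, among these ERF104 (1.01, adjusted p = 0.0075) and ZAT12 (RHL41, 1.22, adjusted p = 0.017).

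Among touch and calcium-sensor genes 11 of 13 fell and none rose (median -1.67), and the count was 7 without sDH II. TCH3, a calmodulin-like protein named for its response to touch, read 487 and 677 CPM in 2n and 105 and 162 CPM in sDH (log2 change -2.12, SE 0.24, adjusted p = 7.82e-05). CML37, another calmodulin-like sensor, had 13.8 and 16 CPM in 2n and 0.7 and 1.17 CPM in sDH. The groups did not overlap in either. PUB24, a ubiquitin ligase that dampens immune signalling, fell by 2.80 and was also lower than in the 3 lines (-2.02, adjusted p = 0.00048). It was 1 of 2 members lower in sDH than in the mean of the 3 lines, while 1 was higher (median -0.16). The list summed to 306 and 520 CPM in sDH and to 122 and 119 CPM in DH6.

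Receptor kinases and receptor-like proteins at the cell surface were gathered by symbol after the data had been seen. Like those of the other lists, their counts describe the listed genes only. Of 35 tested cysteine-rich receptor-like kinases (CRKs), which carry stress signals at the plasma membrane, 24 fell and 3 rose (median -2.09), with 1 rising without 2n WT1 and 1 without sDH III. CRK5 stood at 13.4 and 14.3 CPM in 2n and at 1.35 and 1.23 CPM in sDH (-3.41, SE 0.28, adjusted p = 9.43e-06). CRK36 stood at 10.5 and 10.2 CPM in 2n and at 0.886 and 0.995 CPM in sDH (-3.46, SE 0.28, adjusted p = 9.5e-06). Replicates of either gene were close and the groups lay far apart. CRK21, CRK22 and CRK30 rose, CRK21 from 22.5 and 19.2 CPM to 32.6 and 40.5 CPM (0.81, adjusted p = 0.000494). CRK7 was without counts in sDH against 337 and 304 in 2n, at least 211-fold lower, and it was also lower than in the 3 lines (adjusted p = 0.00428).

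Many CRK genes lie side by side on chromosome 4. The longest run of neighbouring tested genes that changed in the same direction was there and held 11 genes, CRK5 to CRK8, EP1 and CRK10 to CRK15, all of which fell. EP1 had 53.9 and 49.2 CPM in 2n and 7.74 and 4.5 CPM in sDH. The median of the run was -3.28, from -11.30 (CRK7, with no count in sDH) to -1.38 (CRK11). CRK10, at 154 and 209 CPM in 2n, had 37.6 and 45.5 CPM in sDH. CRK13 missed the threshold in 1 of 4 fits without a library (largest adjusted p = 0.0593). Such near copies can share reads, and the run was picked for its changes, so it gets no test.

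**Figure D3:**
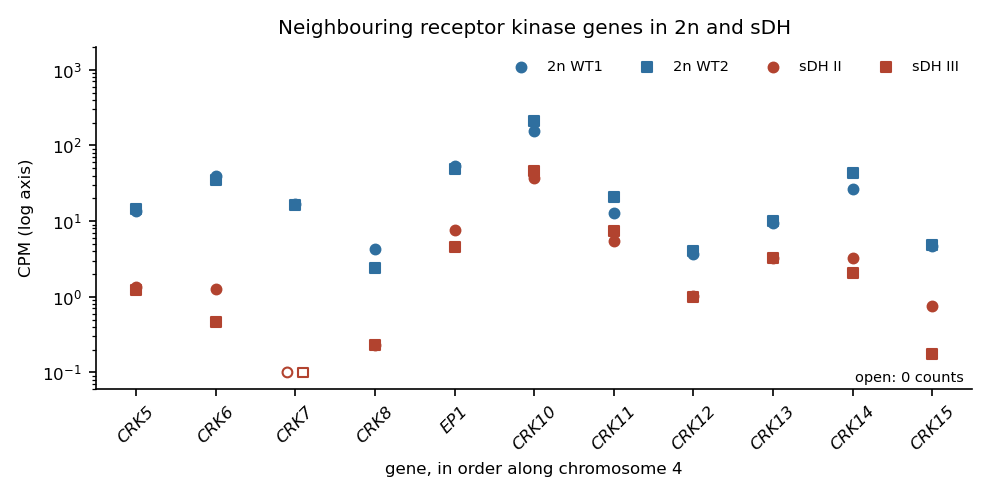
Level in CPM (vertical log axis) of the 11 neighbouring genes on chromosome 4 (horizontal axis, in gene order) in the libraries 2n WT1, 2n WT2, sDH II and sDH III, with open symbols for 0 counts. Each gene has both sDH points below both 2n points, and CRK7 has 0 counts in both sDH libraries against 16.6 and 16.3 CPM in 2n.

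The next run held 7 genes on chromosome 1, AT1G72890 to AT1G72950 with TIR among them, all of which fell (median -2.17). AT1G72890 fell least (-0.52, adjusted p = 0.0467), and its call was lost whichever library was left out (up to 0.209) and with DESeq2 (0.108). TIR, a protein with the signalling domain of NLR receptors but no receptor part, stood at 233 and 274 CPM in 2n and at 54.9 and 78.9 CPM in sDH. It averaged 177 CPM in 1n, 50.6 in DH6, 122 in DH9 and 134 in DH14. AT1G72910 averaged 201 CPM in 2n, 22.1 in sDH, 37.8 in 1n, 15.9 in DH6, 54.7 in DH9 and 56.4 in DH14. Against the mean of the 3 lines, AT1G72910 and TIR were lower in sDH, and the other members of the run did not pass. A further 6 genes on chromosome 1, AT1G24130 to FH4, a formin that organises actin, fell with a median of -2.68. The call of AT1G24130 (adjusted p = 0.037) was lost whichever library was left out (up to 0.238) and with DESeq2 (0.13). Another 3 runs also held 6 genes: AT3G56990 (EDA7) to ARR9 rose (median 1.12), AT3G54460 to ABCF4 rose (median 0.64), and ELF4 to AT2G40110 fell (median -1.04). Among receptor-like proteins, 22 of 47 fell and 3 rose (median -0.76). RLP23, the receptor of a peptide from microbial NLP toxins, had 37.9 and 37.1 CPM in 2n and 0.886 and 0.0585 CPM in sDH (log2 change -6.17, SE 0.68, adjusted p = 7.32e-05). It was lower than in the 3 lines as well (-4.26, adjusted p = 0.0015). RLP34 fell by 3.91 and RLP32, a receptor of a bacterial translation factor, by 1.23.

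PAD3 makes camalexin, the main phytoalexin of Arabidopsis, in the last step of its synthesis. It read 32.7 and 47.5 CPM in 2n and 0.187 and 0 CPM in sDH (log2 change -8.51, SE 0.63, adjusted p = 5.13e-06). CYP71A13, which acts earlier in the same route, stood at 28.3 and 33.7 CPM in 2n and at 3.45 and 3.8 CPM in sDH. Both sDH libraries were near or at 0 for the former and clearly above 0 for the latter. MYB51, an activator of indolic glucosinolates, had 18.23 and 24.9 CPM in 2n and 2.47 and 1.76 CPM in sDH (-3.33, SE 0.24, adjusted p = 4.04e-06). PEN2 and PEN3, which release and export the products at the cell surface, fell by 1.32 and 1.89.

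Over the indolic and camalexin list 10 of 24 fell and none rose (median -0.83), while in a fit of the 4 libraries alone 19 fell and 1 rose. Core enzymes did not pass, such as CYP79B2 (30.5 and 28.1 CPM in 2n, 17.397 and 11.9 CPM in sDH, adjusted p = 0.143). Against the mean of the 3 lines 18 of the 24 were lower in sDH. CYP79B2 was among these, with averages of 63.4, 45.5 and 66 CPM in DH6, DH9 and DH14 (-1.97, adjusted p = 0.0073).

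Among genes of aliphatic glucosinolates, made from methionine, 22 were tested, of which 3 rose, 2 fell and 17 did not pass (median -0.12). Over all genes 15.4% rose and 15% fell. The 3 that rose were 0 without 2n WT2 or sDH III and 1 without sDH II, and 1 fell without 2n WT2 or sDH II. MYB28, their main activator, stood at 30 and 24.2 CPM in 2n and at 36.9 and 37.2 CPM in sDH (0.45, SE 0.13, adjusted p = 0.0218), with an adjusted p of up to 0.162 when a library was left out. The transporters GTR1 and GTR2, which move glucosinolates between tissues, fell by 1.31 and 0.55. Against the mean of the 3 lines, 17 of the 22 were lower in sDH, MYB28 among these (-0.61, adjusted p = 0.0024). CYP79F1, the first enzyme of the core pathway, had 33.6 and 36.1 CPM in 2n, 38.4 and 26.1 CPM in sDH and averages of 96.7, 91.2 and 102 CPM in DH6, DH9 and DH14.

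Jasmonate genes, which answer wounding and insects, fell in 5 of 30 tested members and rose in none (median -1.27). Over all genes tested, 15% fell, a share close to that of this list. The count was 2 without 2n WT2, 2 without sDH II and 3 without sDH III, and in a fit of the 4 libraries alone 16 fell and 1 rose. TAT3, a tyrosine aminotransferase, stood at 68.3 and 83.7 CPM in 2n and at 0.513 and 0.117 CPM in sDH (log2 change -7.80, SE 1.28, adjusted p = 0.00101). The defensin PDF1.2 stood at 12.4 and 18.8 CPM against 0.28 and 0.117 CPM (-6.19, adjusted p = 0.00504). These 2 fell whichever library was left out, LOX3, LOX4 and AOC3 of hormone synthesis did not. VSP2, a vegetative storage protein, overlapped between groups because the 2n libraries were far apart, at 1.33 and 50.4 CPM.

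Heat shock genes fell in 10 of 18 tested members (median -1.06, 6 without sDH II), and 2n WT1 was the high library. HSFA2, a heat-induced activator, had 60.3 and 10.7 CPM in 2n and 0.746 and 0.176 CPM in sDH (log2 change -6.17, SE 0.88, adjusted p = 0.000389). DREB2A, an activator in heat and drought, had 110 and 38.1 CPM against 3.68 and 2.81 CPM. The WT1 value was far above that of WT2 in both, and both 2n values exceeded those of sDH. The averages of DH6, DH9 and DH14 were 0.394, 0.496 and 0.205 CPM for HSFA2, and sDH did not differ from these by the test (adjusted p = 0.79). HSP101, a disaggregating chaperone, overlapped between the groups (20.6 and 8.83 CPM, 9.89 and 6.55 CPM).

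Morning clock genes had the highest median change of all lists. Of 13 tested morning genes 12 rose and 1 fell, with a median of 4.78, and the same counts held whichever library was left out. CCA1 stood at 1.03 and 1.02 CPM in 2n and at 88.4 and 57.6 CPM in sDH (log2 change 6.15, SE 0.47, adjusted p = 6.18e-06). LHY stood at 0.394 and 0.428 CPM in 2n and at 39.1 and 24.3 CPM in sDH (6.25, SE 0.83, adjusted p = 0.000245). In 2n both genes were near the bottom of the measured range and nearly equal between replicates, while in sDH the library II was the higher. PRR9, a repressor that follows CCA1 in the morning, rose from 0.887 and 0.749 CPM to 25.9 and 29.2 CPM (5.06, SE 0.22, adjusted p = 2.19e-07).

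The coactivators LNK1 (AT5G64170), LNK2 (AT3G54500), LNK3 (AT3G12320) and LNK4 (AT5G06980), which work with the RVE factors, rose by 1.68, 4.29, 5.12 and 4.78. LNK2 had 18.5 and 18.7 CPM in 2n and 380 and 349 CPM in sDH. RVE4 (LCL1), RVE8, RVE1 and RVE7 (EPR1) rose by 1.95, 5.39, 5.29 and 2.27, whereas RVE2, the member against the list, fell from 48.6 and 43.4 CPM to 5.22 and 4.74 CPM (-3.20, SE 0.30, adjusted p = 2.26e-05). PRR7 rose by 1.12 from a level that was already high in 2n, 104 and 103 CPM.

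Evening genes moved down. Of 12 tested members 7 fell, none rose and 5 did not pass (median -0.73). TOC1 had 170 and 192 CPM in 2n and 40.4 and 43.6 CPM in sDH (log2 change -2.11, SE 0.18, adjusted p = 1.35e-05). ELF4, a subunit of the evening complex, had 75.3 and 66.6 CPM against 13.6 and 16.8 CPM (-2.23, adjusted p = 0.00035). Both genes were about evenly lower in the 2 sDH libraries. The other subunits LUX (PCL1) and ELF3 fell by 1.61 and 0.62, and BOA, a relative of LUX, by 2.55. GI, which links clock and flowering, did not pass (108 and 95.9 CPM in 2n, 81 and 94.5 CPM in sDH, adjusted p = 0.205).

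Among genes that follow the clock, 5 of 9 rose and 2 fell (median 1.86). The flowering repressors CDF1, CDF2 and CDF3 and the B-box genes COL1 and COL2 rose by 1.86 to 3.38. GRP7, an RNA-binding protein, fell from 3621 and 3477 CPM to 1268 and 1400 CPM (log2 change -1.41, SE 0.19, adjusted p = 0.000266), and COR27 fell from 92.4 and 87.1 CPM to 8.02 and 8.66 CPM. Neither gene overlapped between groups.

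CCA1 averaged 125 CPM in 1n, 16.7 in DH6, 22.8 in DH9 and 94 in DH14, so that 2n had the lowest level of the 6 groups. TOC1 averaged 40.3 CPM in 1n, 73.4 in DH6, 141 in DH9 and 60.5 in DH14, with 2n the highest. Against the mean of the 3 lines 9 morning genes were higher in sDH and RVE2 lower. CCA1 passed that test (1.15, adjusted p = 0.0079) and LHY did not (0.92, adjusted p = 0.13). Since the hour of harvest is not given and these genes cycle through the day, a difference in clock time cannot be told apart from a difference between sDH and 2n at the same time. The part of clock time in the other results was not tested.

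**Figure D4:**
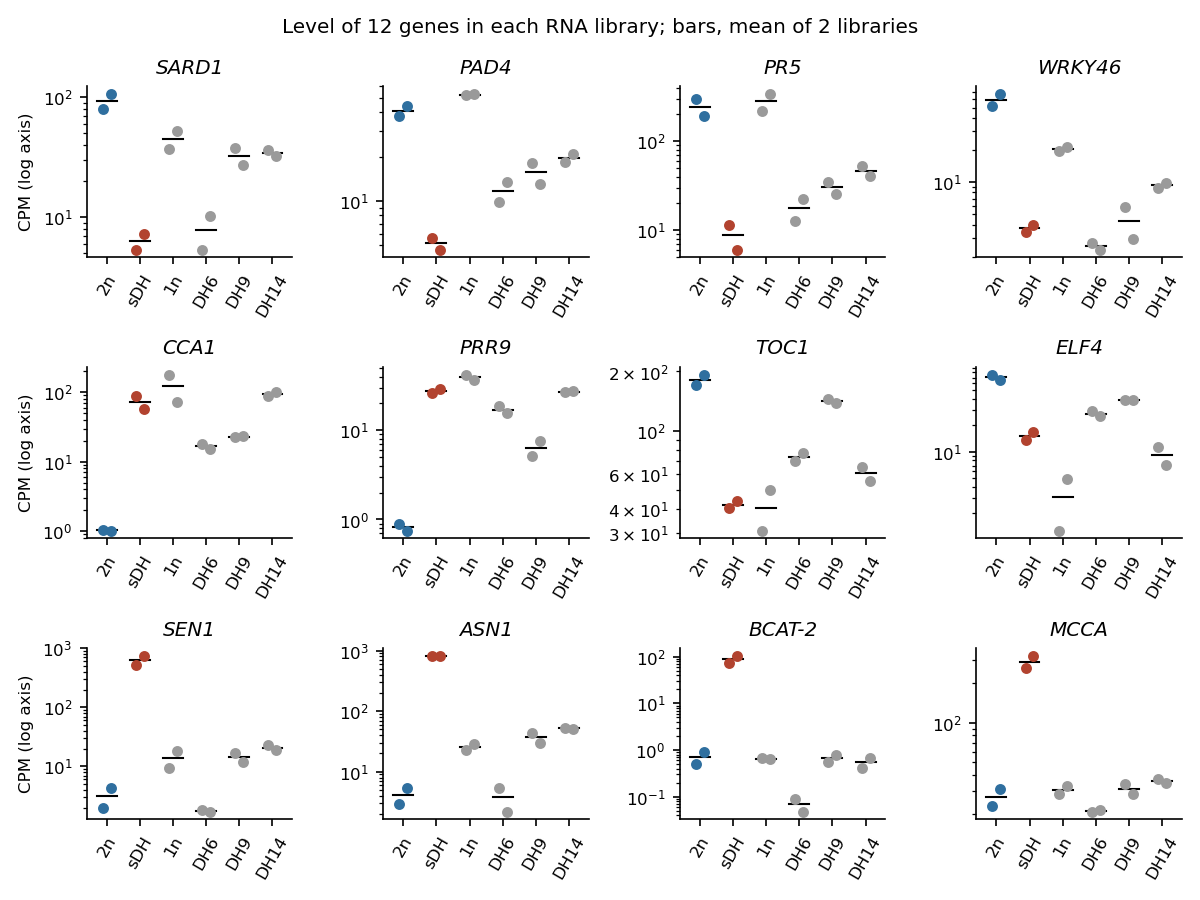
Level in CPM (vertical log axes) of 12 genes in each of the 12 RNA libraries (points, by group on the horizontal axis, with a bar at the mean of a group's 2 libraries). SEN1, ASN1, BCAT-2 and MCCA are highest in sDH (BCAT-2 at 73.2 and 105 CPM), CCA1 and PRR9 are lowest in 2n (CCA1 at 1.03 and 1.02 CPM), and SARD1, PAD4 and PR5 are lower in both sDH libraries than in both 2n libraries.

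B-box factors that act in light signalling rose in 9 of 16 tested members, and 1 fell (median 1.62). BBX28, a negative regulator of seedling light responses, had 3.2 and 2.67 CPM in 2n and 51.3 and 49.3 CPM in sDH (log2 change 4.09, SE 0.13, adjusted p = 3.37e-08). BBX16 and BBX25 (STH) rose by 3.79 and 3.47. BBX20 (BZS1) fell by 1.05, with an adjusted p of up to 0.179 when a library was left out. HY5, the central activator of light responses, did not pass (adjusted p = 0.544).

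The list of photosystem and antenna genes rose in 26 of 41 tested members and fell in none (median 0.35), in 16 without 2n WT2 and in 16 without sDH III. The list summed to 126403 and 110963 CPM in 2n, 164883 and 180005 CPM in sDH and 170293 and 185007 CPM in 1n. In the libraries of DH6, DH9 and DH14 it summed to 152027 to 173514 CPM, so that 2n was the lowest group. Against the mean of the 3 lines 10 members were higher in sDH and 7 lower (median 0.06). Antenna proteins of photosystem II led the rise over 2n. LHCB2.3 had 318 and 261 CPM in 2n and 1707 and 1867 CPM in sDH (log2 change 2.63, SE 0.11, adjusted p = 2.17e-07). LHCB2.1 had 916 and 718 CPM against 3457 and 3482 CPM (2.09, SE 0.10, adjusted p = 5.9e-07). The groups were far apart with close replicates in both, but the LHCB2 copies are near-identical and may share reads. LHCB1.4 (LHB1B1) rose by 1.76 and LHCB4.2 by 1.18. LHCB4.3, an antenna gene that is not on the list and was looked up after its values were seen, fell from a mean of 79.7 CPM to one of 47.7 CPM (log2 change -0.74, SE 0.19, adjusted p = 0.0137). Several core subunits did not pass: PSBO1 of the oxygen-evolving complex, PSAG of photosystem I and PETC of the cytochrome complex overlapped between the groups.

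Chlorophyll synthesis rose in 9 of 15 members and fell in 1 (median 0.30). CAO (CH1), which makes chlorophyll b for the antennae, had 94.9 and 83.7 CPM in 2n and 356 and 342 CPM in sDH (log2 change 1.97, SE 0.10, adjusted p = 6.11e-07). HEMA1, the entry step, had 232 and 235 CPM against 863 and 753 CPM. The sDH libraries were higher throughout. PORA, a protochlorophyllide reductase, stood at 19.5 and 12 CPM in 2n and at 65.7 and 76.9 CPM in sDH, and it was also above the mean of the 3 lines (1.52, adjusted p = 6.5e-05). FC2, a ferrochelatase that leads towards heme, fell by 0.59.

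In the Calvin cycle 3 of 19 genes rose and 3 fell (median -0.01), beside 15.4% and 15% of all genes. The 4 RBCS genes of the Rubisco small subunit did not pass. RCA, which activates Rubisco, rose by 0.57 and FBA1, an aldolase, by 0.67, whereas CP12-2, which inhibits the cycle in darkness, fell by 1.07 and transketolase (AT3G60750) by 0.60.

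Starch genes fell in 13 of 22 tested members and rose in 2 (median -0.48). Of these, 8 fell without 2n WT2 or sDH II, and 1 rose without 2n WT1, 2n WT2 or sDH III. BAM3 (CT-BMY), the main amylase of starch breakdown at night, had 341 and 328 CPM in 2n and 126 and 120 CPM in sDH (log2 change -1.45, SE 0.09, adjusted p = 1.74e-06). ISA3, a debranching enzyme of the same route, fell by 1.04, and SEX1, which starts breakdown by adding phosphate, by 0.77 (adjusted p up to 0.0621 when a library was left out). GBSS1, which makes amylose and is a known target of CCA1 and LHY, went the other way, from 2.66 and 1.55 CPM to 53.1 and 32.4 CPM (4.33, SE 0.51, adjusted p = 0.000105).

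Genes of darkness and sugar starvation rose in sDH. Of 19 tested members 12 rose and 1 fell (median 1.00), 9 of the 12 whichever library was left out, and 12 were also higher than in the mean of DH6, DH9 and DH14. SEN1, a marker of darkness, stood at 1.97 and 4.23 CPM in 2n and at 523 and 748 CPM in sDH (log2 change 7.69, SE 0.41, adjusted p = 6.88e-07). ASN1 (DIN6), the asparagine synthetase of carbon-starved leaves, stood at 2.91 and 5.35 CPM against 809 and 822 CPM (7.63, SE 0.39, adjusted p = 6.11e-07). For both genes the sDH libraries were the highest of all 12, the next groups being DH14 with an average of 20.8 CPM of SEN1 and 52 CPM of ASN1. In sDH against the 3 lines SEN1 was higher by 6.30 and ASN1 by 5.39 (adjusted p = 1.2e-07 and 1.5e-07).

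The list holds the route of branched-chain amino acid breakdown. BCAT-2, the mitochondrial aminotransferase of the first step, had 0.493 and 0.909 CPM in 2n and 73.2 and 105 CPM in sDH (log2 change 6.99, SE 0.27, adjusted p = 1.99e-07). Its averages were 0.649 CPM in 1n, 0.0686 in DH6, 0.669 in DH9 and 0.54 in DH14, and the test against the 3 lines gave 8.196 (adjusted p = 2.7e-09). All libraries of the other groups stayed below 1 CPM. DIN3 (BCE2), a subunit of the keto acid dehydrogenase of the next step, rose from 20.4 and 22.5 CPM to 81.3 and 108 CPM.

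IVD, which oxidises isovaleryl-CoA from leucine, rose from 13.4 and 14.8 CPM to 51.3 and 54.7 CPM (log2 change 1.91, SE 0.11, adjusted p = 1.42e-06). MCCA, a carboxylase subunit further down the leucine route, rose from 22.9 and 31.3 CPM to 260 and 324 CPM (3.43, SE 0.17, adjusted p = 5.9e-07), and its partner MCCB by 0.92. ETFQO, which passes the electrons to the respiratory chain, rose by 1.42, and GDH2, a glutamate dehydrogenase, by 1.63. All of these were near 2n in the 3 lines, where MCCA averaged 21.1, 31.2 and 35.7 CPM and IVD 13.3, 14.2 and 14.5 CPM. Other members went another way. DYL1, a dormancy marker, fell by 1.63, the kinase gene KIN10 did not pass (-0.03, adjusted p = 0.821), and the trehalose phosphate synthase homologues TPS8, TPS9 and TPS11 did not pass.

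Some genes had counts in only 1 of the groups. Of genes with at least 20 counts in both libraries of the other group, 7 had 0 counts in both 2n libraries and 14 had 0 counts in both sDH libraries. All 21 passed the test, but they were picked for these counts, so passing adds little. AT3G59930 did not pass with DESeq2 (adjusted p = 0.147). The calls of AT3G59930, AT3G28510 and MDHAR did not hold with each library left out. UMAMIT33, of an amino acid transporter family, had 195 and 126 counts in sDH and was at least 108-fold higher (adjusted p = 7.18e-06). PAP85, a vicilin-like seed storage protein, had 54 and 87 counts, and GLYI4, of the glyoxalase family, had 32 and 61, at least 47.6-fold and 31.4-fold higher. These 3 were also above the mean of the 3 lines, where no library had more than a trace of PAP85 or GLYI4.

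In the other direction, besides PR1, CRK7 and ALD1, the genes at 0 in sDH included CCR4, a receptor kinase related to CRINKLY4, with 63 and 79 counts in 2n (at least 46.8-fold lower). LUP5, a triterpene cyclase, had 101 and 49 counts in 2n (at least 49.4-fold), and MSRB8, which repairs oxidised methionine, had 161 and 56 (at least 71.5-fold). ARD3, an enzyme of methionine salvage, had 205 and 64 counts (at least 88.6-fold, adjusted p = 0.0207), with an adjusted p of up to 0.103 when a library was left out. WT1 was the higher 2n library for LUP5, MSRB8 and ARD3.

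In mitosis and cytokinesis 4 of 35 tested genes rose and none fell (median 0.08), and 1 of the 4 rose whichever library was left out (2 without sDH II or sDH III). That gene was CYCD3;2, a cyclin that keeps leaf cells dividing, with 34 and 30.7 CPM in 2n and 56.9 and 54.1 CPM in sDH (log2 change 0.78, SE 0.10, adjusted p = 0.000163). Over all genes tested 15.4% rose and 15% fell. The mitotic cyclin CYCB1;2 (CYC1BAT) overlapped between the groups, at 31.4 and 28.5 CPM and at 28.9 and 27.3 CPM. In DNA replication 1 of 20 fell, the ribonucleotide reductase subunit TSO2 (-0.46, adjusted p = 0.0238, up to 0.135 when a library was left out), and none rose. The helicase subunit MCM6 did not pass (-0.06). None of 7 centromere genes passed edgeR's or DESeq2's test, 1 having an unadjusted p under 0.05, and CENH3 (HTR12), the histone that marks centromeres, had 5.62 and 5.19 CPM in 2n and 5.83 and 4.8 CPM in sDH (-0.02, SE 0.30, adjusted p = 0.97).

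The series was designed around DNA methylation, and the genes of its enzymes were listed by role. For the lists of this and the next paragraph, the shares over all genes tested were 15.4% rising and 15% falling. In the list of maintenance 5 of 16 tested genes rose and none fell (median 0.14), beside 15.4% rising among all genes, but 1 rose without 2n WT1, 1 without sDH II, 2 without sDH III and 3 without 2n WT2. CMT2, which methylates non-CG sites in long transposons, rose from 26.8 and 34.8 CPM to 61.4 and 57 CPM (log2 change 0.95, SE 0.18, adjusted p = 0.00233). It was the member that rose in every fit with a library left out, and it did not differ from the mean of the 3 lines (0.30, adjusted p = 0.15). DRM2, the enzyme of the RNA-directed pathway, passed with 0.47 (adjusted p = 0.0219) and the remodeller DDM1 (CHR1) with 0.35 (adjusted p = 0.0492), neither without each library. MET1, which copies CG methylation, did not pass (69.6 and 82.3 CPM in 2n, 66.5 and 60.1 CPM in sDH, adjusted p = 0.11), nor did CMT3 (-0.11).

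In RNA-directed methylation 4 of 20 rose and none fell (median 0.12), 2 without 2n WT1 and 2 without sDH II. SUVH9 and SUVH2, which bring RNA polymerase V to methylated DNA, rose by 0.57 and 0.67 in each of these fits. None of the 6 demethylation genes passed edgeR's or DESeq2's test, 1 having an unadjusted p under 0.05, and 2 fell without 2n WT1. The glycosylase ROS1 (DML1) had 77 and 85.9 CPM in 2n and 86.8 and 64.2 CPM in sDH (-0.11, adjusted p = 0.579). Of 8 tested loci known to be silenced by methylation, EPF2, a peptide that limits stomata, rose from 2.41 and 1.82 CPM to 6.58 and 4.62 CPM (adjusted p = 0.0043). RMG1 (AT4G11170), an NLR gene, had 19 and 31 counts in 2n and none in sDH, at least 16.5-fold lower. SDC overlapped between the groups (adjusted p = 0.596), and FWA had too few counts to test.

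Relative to all gene counts, those of transposable elements (TEs) came to 11.1 and 11.4 per mille in 2n and to 12.4 and 11.6 per mille in sDH. Of 31189 elements listed, 1374 had enough counts, and of these 184 rose (13.4%) and 118 fell (8.59%), 22% in all. Their median change was 0.20 on the scale of gene counts. On the scale of TE totals, which puts this median at 0, 118 rose and 154 fell, so the balance between the directions turned with the scale. Without 2n WT1, 2n WT2 or sDH II the count of 302 was 180, 195 or 199. By more than 4-fold, 31 rose and 55 fell.

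By identifier, AT3TE63500 rose most, with 0 counts in both 2n libraries and 135 and 115 in sDH (at least 84.3-fold). Its counts equalled those of the gene AT3G43850 in 9 of the 12 libraries and differed by 13 counts in all 12 together, so that reads of the element and of the gene cannot be told apart here. AT2TE35695 had 10 and 7 counts in 2n and 231 and 264 in sDH (log2 change 4.89, SE 0.64, adjusted p = 2.24e-05). AT2TE25440 fell most, from 471 and 168 counts to none (at least 211-fold), followed by AT1TE40170, from 90 and 46 counts to none (at least 44.8-fold). The gene closest in counts differed by 513 counts over the 12 libraries for AT2TE35695, by 1571 for AT2TE25440 and by 160 for AT1TE40170. These genes were AT2G29660, which rose, ARD3, which fell, and AT1G33950, which did not pass. A difference in counts depends on level, so a gene with the same pattern at another level would be missed. PR1, on the same chromosome as AT2TE25440, averaged 316 CPM in 1n, 108 in 2n and 0 in sDH. The element averaged 55.9, 16.1 and 0 CPM. Whether reads of these elements come from genes was not tested. Families of the elements are not paired with the identifiers in the tables used here.

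Markers of other tissue were low or absent in both groups. RBCS1A, CAB1, CA1 and RCA of leaf mesophyll summed to 55087 and 52148 CPM in 2n and to 57382 and 63212 CPM in sDH. Of 9 root markers 3 had no count in any of the 4 libraries, among these the root hair genes RHD6 and EXP7 (EXPA7), and the sum of the list was 19.7 and 23.5 CPM in 2n and 25.2 and 21.5 CPM in sDH, nearly all of it SCR, which leaves express too. The 9 seed markers summed to at most 0.428 CPM and the 5 shoot meristem markers to at most 0.28 CPM in these 4 libraries, and the 7 flower and pollen markers to 0.802 to 1.17 CPM. SEP3, a floral factor, had 3 counts in 2n and 25 in sDH and passed (adjusted p = 0.0476, up to 0.209 when a library was left out).

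Of 8 tested genes of the stomatal lineage and guard cells 5 rose and 1 fell (median 0.61), and their sum was 151 and 143 CPM in 2n and 209 and 205 CPM in sDH. In the libraries of DH6, DH9 and DH14 the sum was 172 to 189 CPM, and against the mean of these lines 2 genes were higher in sDH and 2 lower. SCRM (ICE1), a partner of the lineage factors, rose from 53.9 and 50.7 CPM to 91.1 and 94.6 CPM (log2 change 0.83, SE 0.08, adjusted p = 3.85e-05) in every fit without a library, and SPCH, which starts the lineage, rose by 0.94. The count of genes that rose was 1 without sDH II, 2 without 2n WT2, and 3 without 2n WT1 or without sDH III. KAT1, a potassium channel of mature guard cells, fell from 22.7 and 29 CPM to 14.9 and 16.4 CPM (-0.72, adjusted p = 0.00118). Trichome markers summed to 9.8 and 7.97 CPM in 2n and to 15.4 and 8.78 CPM in sDH, and TRY, which limits trichome number, rose by 1.92, with an adjusted p of up to 0.0666 when a library was left out. The part of cell makeup in the changes above was not tested.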

How the data were processed

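The deposited tables hold whole-number read counts per gene (27416) and per TE (31189). The authors aligned reads to TAIR10 with HISAT2 and counted them with Subread, and DESeq2 is named too, per the submitters' processing notes. Versions, annotation, strand setting and the treatment of multiply mapped reads: not given in the sources used here. Tables were joined on feature identifier through their repeated 1n columns. In the sDH gene table both 1n columns are copies of 1 library, so 1n values came from elsewhere in the deposit. Columns headed WT were assigned to 2n, the one group not otherwise accounted for. Gene names came from the RefSeq table of TAIR10.1 (26719 identifiers matched, 10376 with a symbol). No sequences were used. The 12 DNA methylation samples were not analysed here.

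In R 4.3.3, edgeR 4.0.16 filtered features (filterByExpr, minimum count 10, minimum total 15), scaled genes by the trimmed mean of M values (TEs took the gene library sizes) and fitted a group mean for each of the 6 groups by quasi-likelihood, over all 12 libraries. Contrasts were sDH minus 2n and sDH minus the mean of DH6, DH9 and DH14. Adjusted p-values are Benjamini-Hochberg values over all features, with calls under 0.05. CPM are on the same scale, and the SE is the log2 change divided by the root of its F statistic. With 2 libraries against 2, an exact permutation test of a single gene cannot go below p = 0.333. Alternatives used DESeq2 1.42.0, relative log expression factors, no filter, a minimum fold of 2, the compared libraries alone and each library left out. The procedure was also run on simulated, independently drawn counts with a known set of changed genes. Such a run cannot speak to replicates that are not independent.

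A group with 0 counts gives a fold bound against 3 counts in the group, and groups with 1 to 3 counts give a count ratio with its exact 95% interval, which covers counting error only. Genes named were the 8 highest and 8 lowest changes, up to 4 members with the smallest p and defining members of each list, genes at 0 in a group, the 2 TEs at each end and the 3 longest runs of neighbouring changed genes (the third tied with 3 others in length). Other list members were named after their values were seen. Members and lists (44 written from general knowledge, 25 members left out because the reference does not carry the name, and 3 gathered by symbol) were chosen with earlier results of these data known.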

Additional observations from a re-analysis of the deposited data

How the results depend on the processing

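No paired analysis was possible because the 2n columns carry the numbers 1 and 2 and the sDH columns the numerals II and III, so that fewer than 2 numbers are shared. Against a minimum fold of 2, 843 genes changed in sDH against 2n, 67 TEs changed, and 105 genes changed against the mean of DH6, DH9 and DH14. With each library left out in turn these counts ranged from 3668 to 4518, from 180 to 229 and from 2058 to 4090, against 5828, 302 and 4790 with all libraries. DESeq2 called 4813 genes and 219 TEs, and the other scaling and filter settings stayed within 1.5 times of the counts given. Of 224 named genes tested, DESeq2 kept direction and call in 208 and relative log expression factors in 220. A minimum fold of 2 ended 84 calls, and leaving out 2n WT1, 2n WT2, sDH II or sDH III ended 20, 28, 39 or 27. Of 45 list medians 12, 12, 8 and 10 moved in size without 2n WT1, 2n WT2, sDH II and sDH III, small medians changing sign among these. With medians beyond 0.1 on either side, the sign turned when a library was left out for phosphate starvation (0.20; -0.17 without sDH II to 0.43 without sDH III), for root markers (0.14; -0.20 without 2n WT2 to 0.65 without 2n WT1) and for trichome markers (-0.11; -0.34 without sDH II to 0.32 without sDH III). With only the 4 libraries the trichome median was 0.27. The causes were not tested. When 1 library is left out, the lone one is assumed to vary like the other groups. Counts of 0 allow up to 3 counts, and 1 count equals 0.0466 to 0.0585 CPM in these 4 libraries. The motif description planned for promoters was not run.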

Other observations

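The factors PIF4 and PIF5 (PIL6), which promote elongation in warmth and shade, rose from 62.3 and 48.2 CPM in 2n to 111 and 128 CPM in sDH and from 44.9 and 35.1 CPM to 113 and 116 CPM (log2 change 1.11 and 1.52, adjusted p = 0.000546 and 1.51e-05). The shade marker HB-2 fell from 67.9 and 87.2 CPM to 5.69 and 6.96 CPM (-3.62, adjusted p = 0.0002), and the auxin synthesis gene YUC8 fell by 3.08, whereas the expansin EXPA1, which loosens cell walls, rose by 1.84. Of 26 tested members of that list 7 rose and 6 fell (3 without sDH II). For the lists of this paragraph, the shares over all genes were 15.4% rising and 15% falling. Among growth-regulating factors, which set leaf size, 3 of 7 rose and none fell (median 0.80): GRF1 by 0.86, GRF3 by 0.80 and their coactivator GIF1 (AN3) from 1.63 and 1.39 CPM to 5.83 and 4.21 CPM (1.73, adjusted p = 0.000463). That list summed to 51.1 and 43.2 CPM in 2n, 78.4 and 64.2 CPM in sDH and 62.4 to 81.7 CPM in the libraries of DH6, DH9 and DH14. Against the mean of the 3 lines 1 member was higher in sDH and none lower (median 0.14). HTA9, a histone H2A.Z gene, rose by 0.65 and lay above the mean of the 3 lines by 0.92 (adjusted p = 1e-05), while 12 of 15 genes of histones H2A and H2B did not pass.

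AMT1;1, an ammonium transporter, stood at 193 and 229 CPM in 2n and at 41.8 and 42.6 CPM in sDH (-2.32, SE 0.10, adjusted p = 2.17e-07), and GLN1;1 (GSR 1), a cytosolic glutamine synthetase, at 152 and 138 CPM against 34.3 and 29.3 CPM (-2.19, adjusted p = 2.46e-06). NRT1.7, which moves nitrate out of old leaves, fell by 1.30, and over the list 6 of 22 fell and 1 rose. Here and for the lists that follow, the shares over all genes were 15% falling and 15.4% rising. In the iron list 6 of 17 fell and 2 rose (2 and 1 without sDH II), and the ligase BTS fell by 1.05 and the transporter OPT3 by 0.91. In the phosphate list 3 of 13 rose (1 without sDH II) and 1 fell (2 without 2n WT2 or sDH III). Of flavonoid genes 5 of 18 rose and none fell (2 without sDH II, 3 without 2n WT2), with MYBL2, a repressor of the pathway, at 1.34 and EGL3, an activator, at 2.31.

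Among abscisic acid genes 3 of 20 rose and 1 fell. Here and for the other lists of this paragraph, the shares over all genes were 15.4% rising and 15% falling. The factor ABF3 rose from 10.2 and 8.72 CPM to 25.5 and 27.6 CPM (1.48, adjusted p = 2.99e-05), and CYP707A3, which breaks the hormone down, fell by 2.16. In the cold regulon 5 of 13 fell, 0 without sDH II and 2 without 2n WT1 or sDH III. In leaf senescence 5 of 16 fell and 1 rose: SAG13 fell by 4.72 and SAG21 by 3.16, NAP, a senescence factor, rose by 1.88, and SAG12, the classical marker, had no count in any library. Of flowering genes 4 of 23 rose and 3 fell. With any 1 library left out a single gene rose, not the same one in every case, and without sDH II a single gene fell. The flowering activator CO fell by 2.14, and FLC, at 0.838 and 0.535 CPM in 2n and 0.56 and 0.585 CPM in sDH, did not pass (-0.27, adjusted p = 0.781). In DNA damage 2 of 15 rose (1 without either sDH library) and 3 fell (1 without 2n WT2 or sDH II, 0 without sDH III), with ATM at 0.51 and SOG1 at -0.74. Of 10 cell wall enzymes of the XTH family 1 rose, XTH31 by 2.26, and 3 fell (1 without 2n WT2).

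AOP3, a side-chain enzyme of glucosinolates, had 140 counts (8.19 CPM) in sDH III and 0 in each of the other 11 RNA libraries, sDH II included. It was not tested for want of counts in a second library.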
